A study of Mus musculus with 21 samples.

Results

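The collagen genes were taken as every gene whose symbol has the form Col, a number, a and a number, such as Col4a1, which codes for 1 chain of collagen type IV. This name rule found 44 genes among the 22899 of the coculture table and 44 among the 27968 of the sorted-cell table. The rule itself uses no expression value, although it was set with earlier results of these data known. Of these, 11 are fibrillar, 6 are chains of the basement membrane type IV, 9 belong to the fibril-associated collagens with interrupted triple helices (FACIT) and 18 are of other kinds.

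RNA-seq covered 21 mouse libraries, 3 in each of 7 groups. Colonies from the 3D induction of mouse pluripotent stem cells (129/ola strain) were reseeded in medium with SCF, IL-3 and Flt3 ligand. They were placed either on mitomycin C-treated OP9 stromal cells (3D+OP9) or on 0.1% gelatin (3D+0.1% gelatin). Total cells were taken on day 5 after this reseeding. The other 15 libraries came from sorted cells. They were mESC of 129/ola, kept on inactivated embryonic fibroblasts with LIF and sorted by SSEA-1; D5-LSKCD201+ and D5-LSKCD201- cells from the 3D+OP9 coculture; FL-LSKCD201+ cells from the fetal liver of C57BL/6 embryos at E12.5; and BM-LSKCD201+ cells from the bone marrow of C57BL/6 mice aged 6 to 8 weeks. LSK stands for the lineage-negative, Sca-1 and c-kit positive gate, although the sorting antibodies listed by the study are those to c-kit, lineage markers and CD201, the endothelial protein C receptor, and do not include Sca-1. OP9 cells are mouse cells as well, so their RNA in total cells cannot be told apart from that of the stem cell progeny, and strain, age and tissue differ together between the cultured and the in vivo groups. Strain is taken here as 129/ola for the cultured cells, although the study's methods name both 129/ola and C57BL/6 mice as the source of its embryonic stem cells. The study calls the sorted libraries biological replicates, and the labels do not say which cultures or animals each came from. For the coculture the study speaks of independent experiments, without saying which library came from which.

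Collagens are secreted proteins built from 3 alpha chains wound into a triple helix. Fibrillar types form the fibers of connective tissue, type IV forms the network of basement membranes that lie under endothelium and epithelium, FACIT collagens sit on fibrils, and type VI makes beaded filaments around cells. In bone marrow and fetal liver, collagens are known mainly as products of stromal, perivascular and endothelial cells of the niche, and blood cells meet them through integrins and other receptors.

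Some libraries stood apart from their groups. The Euclidean distance of log2(FPKM + 1) profiles within a group was 16.7 to 24.1 between most libraries of a group and 31.6 to 39.3 on gelatin, but 3D+OP9 replicate 3, D5-LSKCD201- replicate 2, FL-LSKCD201+ replicate 1 and BM-LSKCD201+ replicate 1 lay 40.4 to 54.6 from the others of their group, so calls that changed, and folds that moved over 1.5 times, without one of them are given beside the result. In 3D+0.1% gelatin replicate 3, Dab2, known from extraembryonic endoderm among other cells, was at 47.6 FPKM against 6.51 and 7.33. The labels were checked against markers. In D5-LSKCD201+ the blood cell gene Ptprc was at 0.305, 0.321 and 0.602 FPKM, against 38.4 to 52.1 in FL-LSKCD201+. Of the list of 7 pan-hematopoietic markers that holds Ptprc, 6 had a mean of at least 1 FPKM in D5-LSKCD201+. That list summed to 309 to 318 FPKM there, 47.0 to 51.5 in D5-LSKCD201- and 1422 to 1682 in FL-LSKCD201+. In D5-LSKCD201+ the endothelial gene Cdh5 was at 67.6, 73.6 and 71.2 FPKM. The list of 10 endothelial markers summed to 1812 to 1834 FPKM there and to 115 to 121 in D5-LSKCD201-. D5-LSKCD201- kept the pluripotency gene Pou5f1 at 155 to 258 FPKM, and FL-LSKCD201+ held the hepatocyte gene Alb at 63.0 to 73.7 FPKM.

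Values are FPKM, fragments scaled to transcript length and to the mapped fragments of the library, which allow levels of different genes to be set side by side. In the 5 sorted groups, summed collagen FPKM averaged 1287 ± 49.7 (SD, n = 3) for D5-LSKCD201+, against 221 ± 91.2 for D5-LSKCD201-, 100.5 ± 2.39 in mESC, 44.9 ± 5.01 in FL-LSKCD201+ and 23.3 ± 2.43 in BM-LSKCD201+. Every D5-LSKCD201+ library, from 1249 to 1343, lay above every library of the other sorted groups. In bulk libraries, fewer cells of a type and less RNA per cell cannot be told apart. Type IV chains held 46.0% ± 0.915 of the collagen FPKM in D5-LSKCD201+ and the multiplexins, mainly Col18a1, another 42.4% ± 0.941. Without Col4a1, Col4a2 and Col18a1, the sum over the other 41 genes was 153 ± 7.03 FPKM for D5-LSKCD201+ against 121 ± 33.3 for D5-LSKCD201-.

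**Figure D1:**
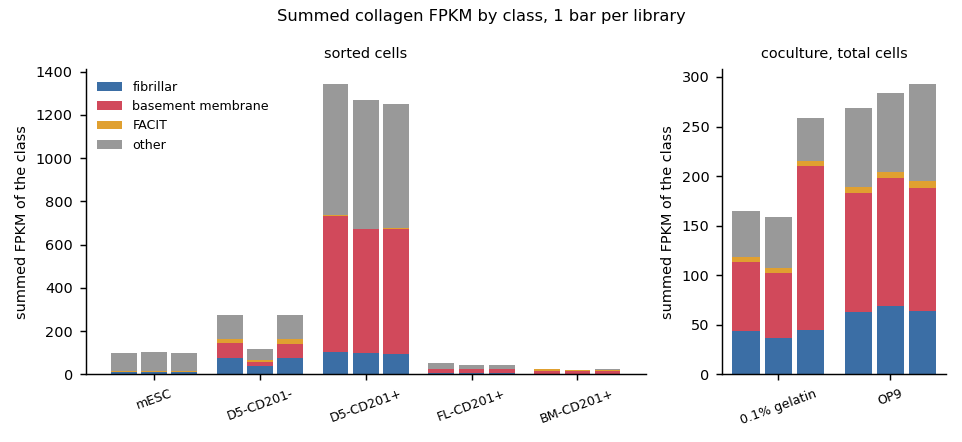
Summed FPKM of the collagen classes, with 1 stacked bar per library (replicates 1, 2 and 3 from left to right) in the sorted groups (left) and in total cells of the coculture (right), whose vertical scales differ. The D5-LSKCD201+ bars reach 1249 to 1343 FPKM and are mostly type IV and other collagens, while all other sorted libraries stay at or under 274 FPKM.

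The makeup differed between groups as well as the sum. In mESC, multiplexins held 76.9% ± 0.689 of the collagen FPKM and type IV chains 2.53% ± 0.402. In BM-LSKCD201+, multiplexins held 2.15% ± 0.507, type IV chains 57.3% ± 2.99 and FACIT collagens 28.8% ± 2.25, nearly all of that Col16a1. Fibrillar collagens held their highest share among the sorted groups in D5-LSKCD201-, at 29.1% ± 2.86. These shares carry no test.

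Of the 44 genes, 18 had a mean of at least 1 FPKM in D5-LSKCD201+, 20 in D5-LSKCD201-, 7 in mESC, 5 in FL-LSKCD201+ and 4 in BM-LSKCD201+. Of the 23 that reached this level in any sorted group, 14 were highest in D5-LSKCD201+, 5 in D5-LSKCD201-, 2 in mESC (Col9a2 and Col13a1), 1 in FL-LSKCD201+ (Col11a2) and 1 in BM-LSKCD201+ (Col16a1).

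**Figure D2:**
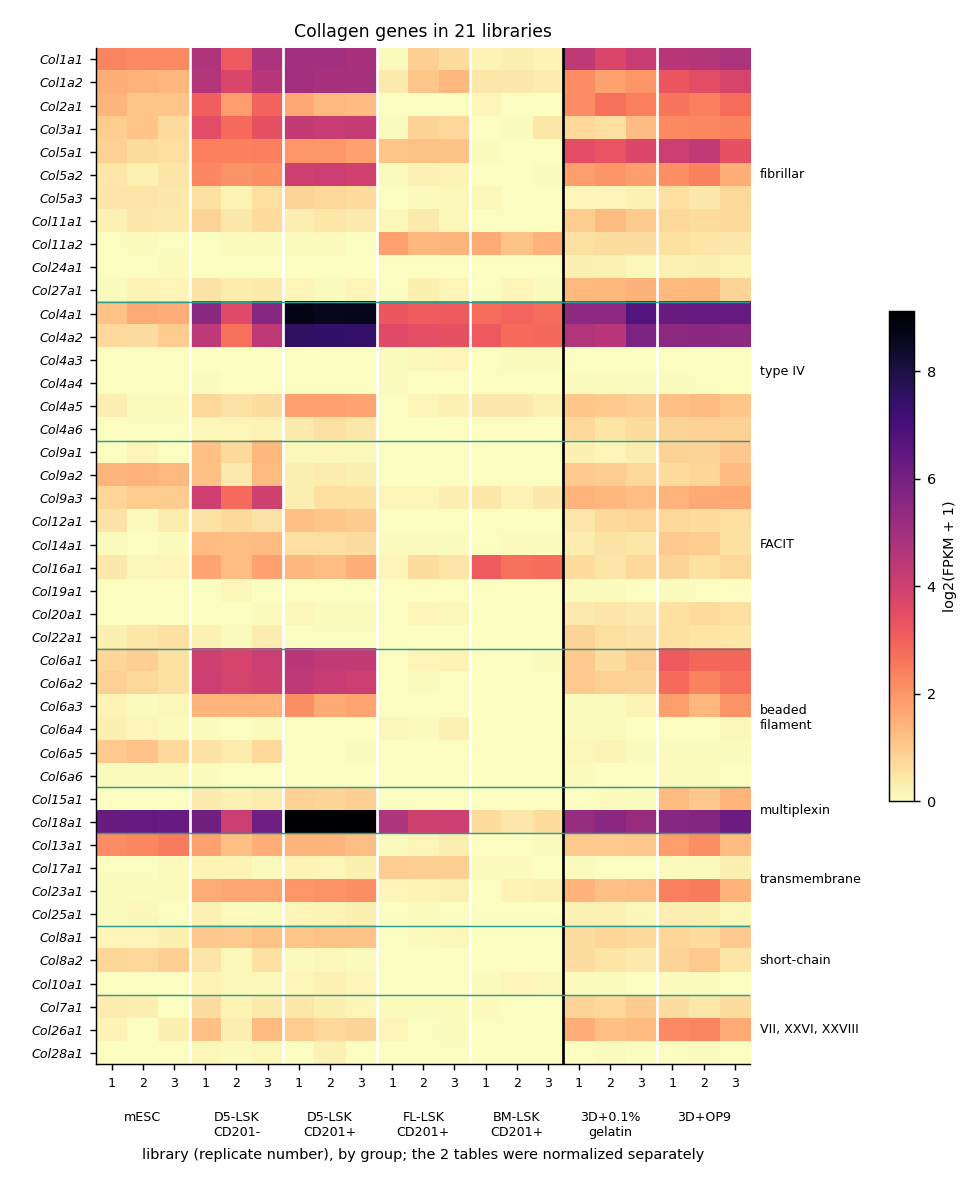
Heat map of log2(FPKM + 1) for the 44 collagen genes (rows, by class) in 21 libraries (columns, by group and replicate number); the black line parts the 2 tables, which were normalized separately. Col4a1, Col4a2 and Col18a1 are darkest in D5-LSKCD201+, Col6a1 and Col6a2 are dark in both D5 groups, and Col16a1 stands out in BM-LSKCD201+.

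The first comparison asked how total cells on OP9 differed from total cells on gelatin. All 3 broadly expressed type VI chains (Col6a1, Col6a2 and Col6a3), the fibrillar Col1a2 and Col3a1, and the multiplexin Col15a1 were higher with OP9. Of the 29 collagen genes tested (those averaging 0.5 FPKM or more across the 6 libraries), 6 were called higher (adjusted p under 0.05 and a log2 difference of 1 or more), beside 2.11% of the 12958 genes tested, and 0 were lower, beside 0.509%. Col6a3 and Col15a1 passed the filter only through the OP9 libraries, so the count is a description. Here and below, a gene whose mean was under 0.5 FPKM in 1 of the groups compared entered the test only through the other group, and its difference is given with no p. By the unadjusted limma p alone, 1 was lower, Col11a1. The median log2 fold change of the tested collagen genes was 0.42 and that of all genes tested 0.01. Fold changes here and below are differences in mean log2(FPKM + 1), which understates the change of genes at low levels.

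Type VI chains are read first because they had the 3 largest differences on the log2(FPKM + 1) scale. Col6a1 had 8.02, 6.56 and 6.50 FPKM with OP9 and 1.04, 0.53 and 0.93 on gelatin, a log2 fold change of 2.14 ± 0.15 (SE; limma, adjusted p = 0.000722). Col6a2 had 6.12, 4.16 and 5.61 FPKM against 1.03, 0.82 and 0.77 (1.74 ± 0.15, adjusted p = 0.0014). Col6a3 had 2.59, 1.57 and 3.18 FPKM against 0.03, 0.06 and 0.15 (1.65 ± 0.19). In none of these did the groups overlap, and the ratio of group means was 8.43 for Col6a1 and 6.06 for Col6a2. The other type VI chains, Col6a4, Col6a5 and Col6a6, which can take the place of the Col6a3 chain in some tissues, did not exceed 0.14 FPKM in any coculture library.

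Bases upstream of the start sites of these 3 genes are shown because the genes moved together here. They come from the RefSeq promoter table (GRCm38.p6), which held a window for 35 of the 44 genes, and stop where a GENCODE M21 exon begins. For Col6a2 and Col6a3 the bases reach the RefSeq start site (76623630 and 90843971). For Col6a1 that site is 76726044, and the bases stop further upstream, at the GENCODE gene start (76726168). All 3 genes lie on the minus strand. The stretches are chr10:76726169-76726294 for Col6a1, chr10:76623631-76623880 for Col6a2 and chr1:90843972-90844221 for Col6a3, each 5′ to 3′ on the gene's strand, with capitals for any match, on either strand, to the TATA box letters TATAAA, to the CAAT box letters CCAAT or to the Sp1-type letters GGGCGG.
Col6a1: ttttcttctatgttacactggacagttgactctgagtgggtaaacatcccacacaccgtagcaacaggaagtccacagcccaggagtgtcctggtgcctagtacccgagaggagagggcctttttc
Col6a2: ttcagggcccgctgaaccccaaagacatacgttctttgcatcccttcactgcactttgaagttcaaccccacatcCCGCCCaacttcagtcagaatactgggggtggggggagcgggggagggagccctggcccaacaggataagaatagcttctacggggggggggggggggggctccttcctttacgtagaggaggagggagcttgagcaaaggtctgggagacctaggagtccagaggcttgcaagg
Col6a3: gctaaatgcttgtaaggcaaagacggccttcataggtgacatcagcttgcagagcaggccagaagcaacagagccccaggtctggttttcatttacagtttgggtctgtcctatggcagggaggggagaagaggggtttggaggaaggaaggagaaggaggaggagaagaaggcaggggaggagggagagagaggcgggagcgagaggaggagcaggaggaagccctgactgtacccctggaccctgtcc

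The only match was 1 GGGCGG, on the reverse strand, in the 250 bases of Col6a2. Over the first 250 bases of 32817 promoter windows in the table, 32.7% held this motif, 33.8% held CCAAT and 12.4% held TATAAA. Over the first 126 bases, the length shown for Col6a1, the shares were 13.5%, 16.9% and 6.26%. A match is a description of letters and not a binding site.

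Fibrillar collagens varied in how far total cells on OP9 stood from total cells on gelatin. Col1a2, which pairs with Col1a1 in type I collagen, had 8.82, 10.3 and 13.4 FPKM with OP9 and 3.53, 2.44 and 2.99 on gelatin (log2 fold change 1.56 ± 0.17, adjusted p = 0.00313). Its partner Col1a1 had 22.0, 23.7 and 26.4 FPKM against 19.8, 12.4 and 17.3; these did not overlap either, but the difference did not pass (0.53 ± 0.17, adjusted p = 0.107). The ratio of Col1a1 to Col1a2 FPKM was 2.25 ± 0.261 (SD, n = 3) with OP9 and 5.49 ± 0.374 on gelatin, with no test made of this ratio.

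Col3a1, the chain of type III collagen of pliable tissues and vessel walls, had 3.64, 3.94 and 4.14 FPKM with OP9 and 0.65, 0.52 and 1.39 on gelatin (1.43 ± 0.18, adjusted p = 0.00547). Col5a1, a type V chain that helps to start fibrils, had 16.2, 18.7 and 9.76 FPKM against 10.5, 9.02 and 12.3 (0.42 ± 0.23, adjusted p = 0.32). Col5a2 had 3.34, 4.30 and 1.87 FPKM against 2.54, 3.06 and 2.60 (0.12 ± 0.22, adjusted p = 0.804). In both of these type V chains 3D+OP9 replicate 3 was the lowest of its group and the groups overlapped. The third chain, Col5a3, was under the filter, at 0.50, 0.34 and 0.66 FPKM against 0.11, 0.12 and 0.18. Col2a1, the main collagen of cartilage, had 5.15, 4.45 and 5.88 FPKM against 3.62, 5.69 and 4.43 (0.15 ± 0.17, adjusted p = 0.64).

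Among basement membrane collagens, 1 gelatin library lay far above the other 2. Col4a1 had 75.9, 81.1 and 80.3 FPKM with OP9 and 43.0, 43.1 and 108 on gelatin (0.43 ± 0.32, adjusted p = 0.485). Col4a2 had 42.5, 46.0 and 42.1 FPKM against 24.2, 21.1 and 56.2 (0.49 ± 0.32, adjusted p = 0.416). Without 3D+0.1% gelatin replicate 3 the log2 fold change was 0.86 ± 0.08 for Col4a1 (adjusted p = 0.00569) and 0.92 ± 0.10 for Col4a2 (adjusted p = 0.00919), still short of the fold threshold. That library also had Lama1, a basement membrane laminin chain, at 26.5 FPKM against 5.17 and 6.33, and Ttr at 11.8 against 0.48 and 0.34; the part of the cells that carry these genes in the type IV values was not tested. Col4a5 and Col4a6 were at 0.39 to 1.44 FPKM in all 6 libraries, and Col4a3 and Col4a4 did not exceed 0.06.

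Multiplexins are basement membrane zone proteoglycans that release anti-angiogenic fragments, endostatin in the case of Col18a1. Col15a1 had 1.45, 1.06 and 1.69 FPKM with OP9 and 0.01, 0.06 and 0.03 on gelatin (1.21 ± 0.13). It was not tested with a filter at 1 FPKM. Col18a1 had 48.2, 51.9 and 73.1 FPKM against 37.4, 44.0 and 36.0, without overlap, but the difference did not pass (0.53 ± 0.16, adjusted p = 0.102). No FACIT gene was called, and the nearest, Col9a1, a chain of the cartilage type IX, had 0.79, 0.74 and 1.05 FPKM against 0.20, 0.13 and 0.28 (0.63 ± 0.12). Col9a3 had 1.72, 2.08 and 2.17 FPKM against 1.75, 1.60 and 1.35 (0.22 ± 0.13, adjusted p = 0.346).

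**Figure D3:**
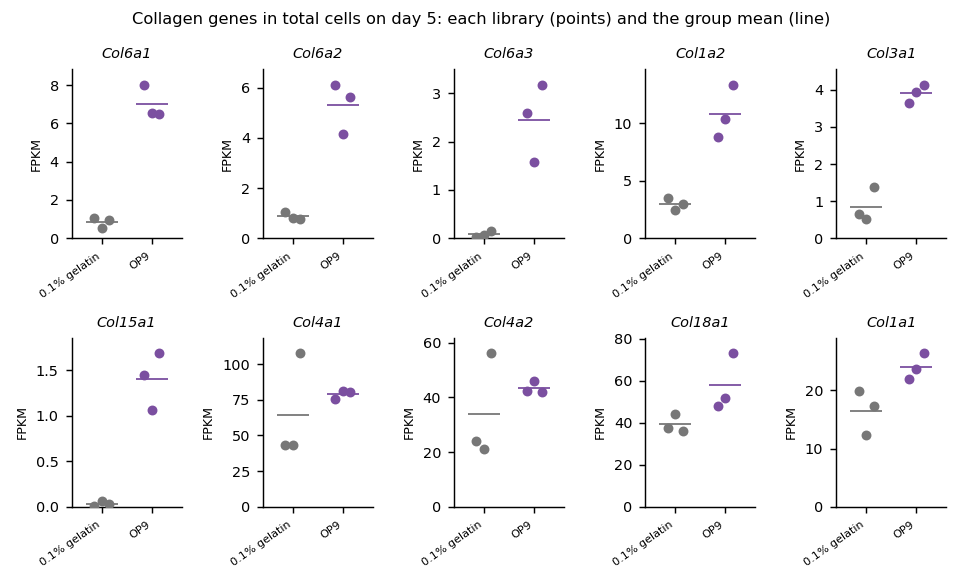
FPKM of 10 collagen genes in each library (points, replicates 1 to 3 from left to right) of total cells on 0.1% gelatin and on OP9, with the group mean as a line; each panel has its own scale from 0. The 6 genes called (Col6a1 to Col15a1) do not overlap between groups, whereas 1 gelatin library reaches 108 FPKM in Col4a1 and 56.2 in Col4a2.

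Markers of other cells moved beside these genes. The stromal or fibroblast list, which OP9 cells could bring in, had 3 of 11 tested genes higher with OP9 (Postn, Fbn1 and Prrx1) and 0 lower, and its sum was 98.9 to 138 FPKM with OP9 against 88.2 to 98.0 on gelatin. Of its defining genes, Lum and Fap did not exceed 0.25 FPKM, and Dcn was at 0.65, 1.04 and 0.35 against 0.33, 0.48 and 0.71 FPKM, with overlap. The endothelial list had 7 of 9 tested genes higher and summed to 116 to 140 against 23.3 to 39.6 FPKM. The preadipocyte gene Fabp4 was at 2.32, 1.99 and 3.95 against 0, 0 and 0.17 FPKM, while Adipoq and Plin1 did not exceed 0.13. Of 5 tested pan-hematopoietic genes 4 were higher (sum 24.3 to 30.3 against 6.23 to 6.79 FPKM), and of 4 tested smooth muscle genes 2 were lower (63.5 to 88.8 against 198 to 230 FPKM). The pluripotent list summed to 502 to 764 against 830 to 910 FPKM, with 2 of its 5 genes called higher, 0 lower and a median log2 fold change of -0.52. The 1 tested megakaryocyte gene was higher (list sum 6.51 to 8.49 against 0.44 to 0.72 FPKM). The part of these cells in the collagen differences was not tested.

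The second comparison set D5-LSKCD201+ against D5-LSKCD201- cells of the same coculture. The chains of the widespread type IV collagen, Col4a1 and Col4a2, and the endostatin precursor Col18a1 were about 11 to 12 times as high in D5-LSKCD201+, and Col4a5 and the fibrillar Col5a2 were higher too, while the cartilage collagens Col9a3 and Col2a1 were lower. Of the 25 collagen genes tested, 5 were higher, beside 10.8% of the 13691 genes tested, and 2 were lower, beside 13.9%. Col9a3, 1 of the 2 lower, passed the filter only through D5-LSKCD201-. The median log2 fold change was 0.36 over the tested collagen genes and -0.12 over all genes tested.

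Col4a1 had 444, 392 and 401 FPKM in D5-LSKCD201+ against 45.6, 11.1 and 46.4 in D5-LSKCD201- (log2 fold change 3.79 ± 0.50, adjusted p = 0.000402). Col4a2 had 184, 177 and 173 FPKM against 20.3, 5.69 and 19.7 (3.64 ± 0.42, adjusted p = 0.000204). D5-LSKCD201- replicate 2 was the lowest in both, and without it the log2 fold change was 3.13 ± 0.06 for Col4a1 and 3.09 ± 0.04 for Col4a2. The 2 genes start head to head on chromosome 8 of GRCm38, Col4a1 at 11198423 to 11312826 on the minus strand and Col4a2 at 11312805 to 11449287 on the plus strand. The file gives both the same locus, and the strand setting of the counting is not given in the sources used here, so reads at the shared start may be assigned to either. The ratio of Col4a1 to Col4a2 FPKM was 2.31 ± 0.100 (SD, n = 3) in D5-LSKCD201+ against 2.18 ± 0.206 in D5-LSKCD201-, and 0.795 ± 0.0424 in FL-LSKCD201+ and 0.915 ± 0.173 in BM-LSKCD201+.

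Col4a5, a chain that joins other type IV networks, had 2.40, 2.52 and 2.33 FPKM against 0.671, 0.417 and 0.534 (1.15 ± 0.09, adjusted p = 3.46e-05). It was the only other type IV chain tested. Col4a6 stayed between 0.0773 and 0.512 FPKM in both D5 groups, and Col4a3 and Col4a4, the chains of kidney and lung basement membranes, did not exceed 0.0254.

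Col18a1 was the highest collagen gene in D5-LSKCD201+ and ranked 114 among the 27968 genes there by mean FPKM, ahead of Col4a1 at rank 186. It had 555, 548 and 529 FPKM in D5-LSKCD201+ against 66.5, 16.2 and 68.6 in D5-LSKCD201- (3.65 ± 0.51, adjusted p = 0.000525), and 2.99 ± 0.04 without D5-LSKCD201- replicate 2. The related Col15a1 had 0.830, 0.760 and 0.880 FPKM against 0.289, 0.179 and 0.266 (0.55 ± 0.08), which is under the fold threshold.

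The type V chains differed. Col5a2 had 15.1, 16.3 and 14.8 FPKM in D5-LSKCD201+ against 3.84, 3.17 and 3.44 in D5-LSKCD201- (1.87 ± 0.09, adjusted p = 2.75e-06), whereas Col5a1 had 2.99, 2.91 and 2.51 against 4.34, 4.29 and 4.39 (-0.49 ± 0.09, adjusted p = 0.00267, under the fold threshold). Col5a3 had 0.730, 0.656 and 0.577 FPKM against 0.478, 0.137 and 0.491 (0.28 ± 0.12). The Col5a1 to Col5a2 ratio was 0.182 ± 0.0144 in D5-LSKCD201+ against 1.25 ± 0.114 in D5-LSKCD201-.

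Type I and type III collagen were high in both D5 groups and did not pass. Col1a1 had 30.3, 30.7 and 28.4 FPKM against 24.9, 8.02 and 25.7 (0.74 ± 0.40, adjusted p = 0.135), and 0.23 without D5-LSKCD201- replicate 2. Col1a2 had 31.3, 28.4 and 28.9 FPKM against 23.7, 12.5 and 22.4 (0.62 ± 0.22, adjusted p = 0.0386). Col3a1 had 18.3, 17.1 and 17.8 FPKM against 10.6, 6.06 and 9.79 (0.97 ± 0.18, adjusted p = 0.00249), just under the fold threshold. For all 3 genes every D5-LSKCD201+ library lay above every D5-LSKCD201- library. The share of all genes that separate in this way was not computed. By adjusted p alone, 3930 of the 13691 genes tested were higher in D5-LSKCD201+ and 5419 lower.

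Type VI chains differed little between the D5 groups. Col6a1 had 21.4, 18.6 and 18.1 FPKM against 15.3, 13.0 and 16.2 (0.36 ± 0.10, 95% interval 0.12 to 0.61). Col6a2 had 19.4, 17.2 and 16.2 FPKM against 15.9, 13.5 and 15.3 (0.23 ± 0.09, 95% interval 0.01 to 0.45). Col6a3 had 3.37, 2.06 and 2.31 FPKM against 1.63, 1.75 and 1.71 (0.39 ± 0.14, 95% interval 0.05 to 0.73). The 3 intervals lie below the fold threshold of 1.

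The 2 genes that were lower in D5-LSKCD201+ are known mainly from cartilage. Col9a3 had 0.233, 0.498 and 0.479 FPKM in D5-LSKCD201+ against 15.4, 6.17 and 14.9 in D5-LSKCD201- (-3.14 ± 0.32). Its locus in the file reaches past the annotated gene on chromosome 2 (180597790 to 180622189) to 180642708, so reads of a neighbor may enter it. Col2a1 had 2.19, 1.52 and 1.42 FPKM against 7.55, 2.66 and 6.92 (-1.22 ± 0.32, adjusted p = 0.0122).

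The other type IX chains were under the fold threshold and passed the filter only through D5-LSKCD201-. Col9a1 had 0.0781 to 0.0922 FPKM in D5-LSKCD201+ against 0.606 to 1.58 in D5-LSKCD201- (-0.96 ± 0.17), and it was past that threshold without D5-LSKCD201- replicate 2 (-1.16 ± 0.09). Col9a2 had 0.194 to 0.280 FPKM against 0.294 to 1.46 (-0.65 ± 0.23). Among the remaining FACIT genes, Col14a1 was at 0.489 to 0.525 against 1.37 to 1.40 FPKM (-0.66 ± 0.07, adjusted p = 0.000175) and Col12a1 at 0.98 to 1.27 against 0.422 to 0.622 FPKM (0.51 ± 0.10), both under the fold threshold.

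**Figure D4:**
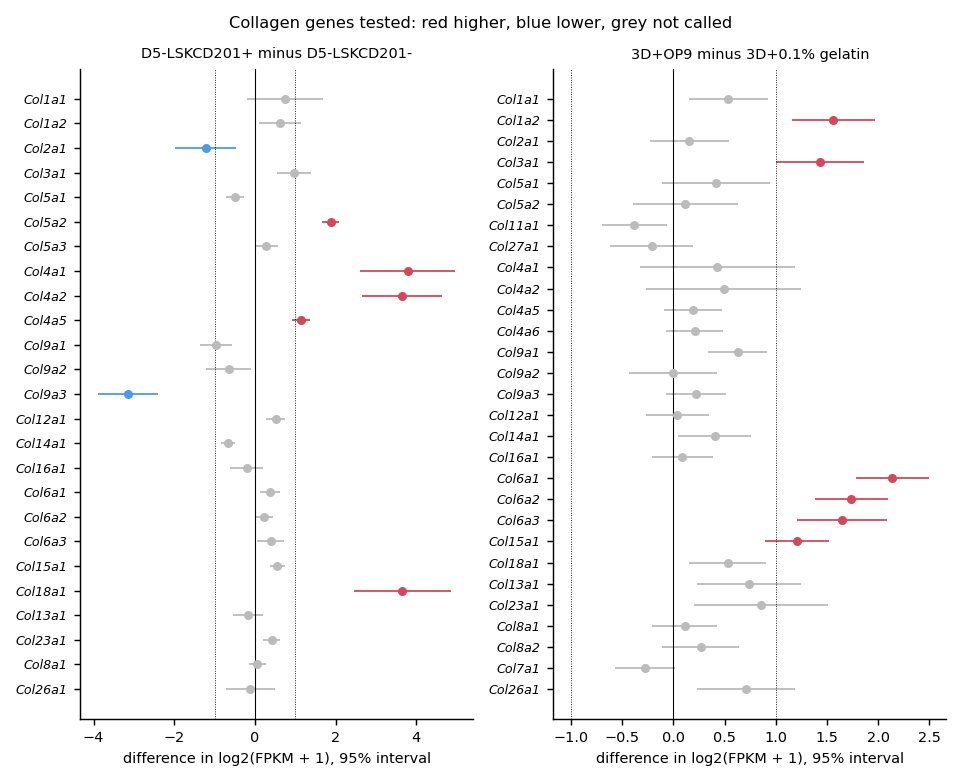
Difference in mean log2(FPKM + 1) with its 95% interval for the collagen genes tested, for D5-LSKCD201+ minus D5-LSKCD201- (left, 25 genes) and 3D+OP9 minus 3D+0.1% gelatin (right, 29 genes); dotted lines mark the fold threshold of 1. Col4a1, Col4a2 and Col18a1 lie between 3.64 and 3.79 on the left, and the 3 type VI chains between 1.65 and 2.14 on the right.

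Markers moved with the D5 groups as well. All 10 endothelial markers were higher in D5-LSKCD201+ (Cdh5, log2 fold change 4.44 ± 0.08), as were 4 of 12 tested stromal or fibroblast genes, among them Fbn1 and Lum, with 1 lower, Pdgfra. All 5 pluripotency genes and 4 of 4 tested smooth muscle genes were lower. Of the pan-hematopoietic genes 4 of 7 were higher (sum 309 to 318 against 47.0 to 51.5 FPKM), as were 2 of 4 tested preadipocyte genes (35.7 to 37.8 against 12.3 to 16.2) and both tested megakaryocyte genes (45.6 to 48.0 against 3.92 to 4.75). All 3 tested hepatocyte genes were lower (sum at most 1.15 against at least 6.27), and of 9 tested endoderm genes 2 were higher and 3 lower (338 to 349 against 199 to 238). Lum, a defining fibroblast gene, was at 1.37, 1.51 and 1.82 FPKM in D5-LSKCD201+ and at most 0.135 in D5-LSKCD201-, whereas Dcn was at 3.11, 3.47 and 3.76 against 3.10, 4.12 and 2.48 FPKM. The part of these cell types in the collagen values was not tested.

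The third question was how the D5 cells differed from the mESC, which share their strain. In D5-LSKCD201+, 14 of the 21 tested collagen genes were higher than in mESC, beside 19.5% of the 13441 genes tested, and 1 (Col9a2, which passed the filter only through mESC) was lower, beside 18.1%. In D5-LSKCD201-, 16 of 23 were higher, beside 10.9% of 13596 genes, and 0 were lower by the same limma rule, beside 3.48%. By unadjusted p under 0.05, and also by adjusted p alone, 3 were lower (Col6a5, Col8a2 and Col13a1). By adjusted p alone, 3044 of the 13596 genes were lower. Col6a5 and Col8a2 passed the filter only through mESC, so their place in this count is a description. Both comparisons use the same mESC libraries. The median log2 fold change of the tested collagen genes was 1.70 for D5-LSKCD201+ and 1.44 for D5-LSKCD201-, against -0.07 and 0.05 over all genes tested. Genes near 0 in mESC, such as Col6a3 and Col23a1, passed the filter only through the D5 libraries, so these counts and medians are descriptions. Marker genes moved beside them. In D5-LSKCD201+ against mESC, all 10 endothelial genes (sum 1812 to 1834 FPKM against 52.5 to 56.6) and 8 of 11 tested stromal genes (226 to 232 against 29.0 to 32.2) were higher, and all 5 pluripotent genes were lower. In D5-LSKCD201- against mESC, 8 of 11 stromal genes (81.6 to 83.9 FPKM), 6 of 10 endothelial genes (115 to 121), all 9 tested endoderm genes (199 to 238 against 4.28 to 4.99) and 3 of 4 smooth muscle genes (172 to 255 against 16.9 to 24.8) were higher, and 2 of 5 pluripotent genes were lower. Also higher in D5-LSKCD201- were 3 of 3 tested hepatocyte, 2 of 4 preadipocyte, 3 of 6 pan-hematopoietic and 1 of 1 megakaryocyte genes. The part of these cells in the collagen values was not tested.

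Col4a1 and Col4a2 had the largest differences from mESC in D5-LSKCD201+, and Col6a1 and Col6a2 were in the range of the type I, III and V chains Col1a2, Col3a1 and Col5a2. Col4a1 had 1.23, 2.04 and 1.91 FPKM in mESC (D5-LSKCD201+ log2 fold change 7.25 ± 0.11; D5-LSKCD201- 3.47 ± 0.50, or 4.12 ± 0.13 without D5-LSKCD201- replicate 2). Col4a2 had 0.615, 0.558 and 0.916 FPKM in mESC (6.73 ± 0.08 and 3.09 ± 0.43). Col6a1 had 0.687, 0.870 and 0.480 FPKM (3.60 ± 0.10 and 3.24 ± 0.13), and Col6a2 0.831, 0.677 and 0.454 FPKM (3.50 ± 0.11 and 3.27 ± 0.12). All 8 differences passed, with adjusted p from 1.56e-11 to 0.000939. Col6a3, at 0.139, 0.0343 and 0.0878 FPKM in mESC, and Col23a1, a transmembrane collagen at 0.0272 to 0.0307 FPKM in mESC and up to 3.35 in the D5 groups, were among the genes higher in both comparisons.

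Among the fibrillar genes, type I and III collagen rose from a low but measurable level. Col1a1 had 4.01, 3.72 and 3.68 FPKM in mESC (2.68 ± 0.06 in D5-LSKCD201+ against 1.94 ± 0.39 in D5-LSKCD201-). Col1a2 had 1.84, 1.77 and 1.59 FPKM (3.48 ± 0.07 and 2.86 ± 0.22) and Col3a1 0.922, 1.20 and 0.575 FPKM (3.32 ± 0.12 and 2.35 ± 0.21). Col5a2 had 0.374, 0.166 and 0.402 FPKM in mESC and Col5a1 0.819, 0.522 and 0.510, and both were higher in both comparisons (Col5a2 with 3.65 ± 0.09 and 1.77 ± 0.11). Col2a1, at 1.64, 1.16 and 1.17 FPKM in mESC, passed in D5-LSKCD201- (1.44 ± 0.31, adjusted p = 0.00645) and gave 0.22 ± 0.13 in D5-LSKCD201+ (adjusted p = 0.143).

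Col18a1 was the one collagen with a high level in mESC, at 74.7, 79.7 and 77.3 FPKM. It rose 7.04-fold in D5-LSKCD201+ by the ratio of means (log2 fold change 2.80 ± 0.04, adjusted p = 2.28e-11), and in D5-LSKCD201- it was -0.85 ± 0.50 against mESC (adjusted p = 0.185), or -0.19 ± 0.04 without D5-LSKCD201- replicate 2 (adjusted p = 0.00534). Col9a3 had 0.715, 0.910 and 0.924 FPKM in mESC, and was 2.74 ± 0.31 higher on the log2 scale in D5-LSKCD201- (adjusted p = 0.000266) and gave -0.40 ± 0.10 in D5-LSKCD201+ (under the fold threshold). Col13a1, a transmembrane collagen, was highest in mESC at 3.59, 3.86 and 4.64 FPKM, against 1.32 to 1.67 in D5-LSKCD201+ (-0.98 ± 0.10, adjusted p = 1.56e-05). It was called without mESC replicate 1 or 2 or without D5-LSKCD201+ replicate 1 or 2. Among the fits leaving out 1 library, Col26a1 was called in D5-LSKCD201- against mESC only without D5-LSKCD201- replicate 2 (1.08 ± 0.11, against 0.77 ± 0.25 with it). With all libraries, Col26a1 was also called there with a pseudocount of 0.1 and after scaling each library to 1 common sum (TPM). Col6a5 (0.636 to 1.20 FPKM) and Col8a2 (0.674 to 0.863 FPKM in mESC) were above D5-LSKCD201-, at 0.280 to 0.626 and 0.0804 to 0.449 FPKM.

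**Figure D5:**
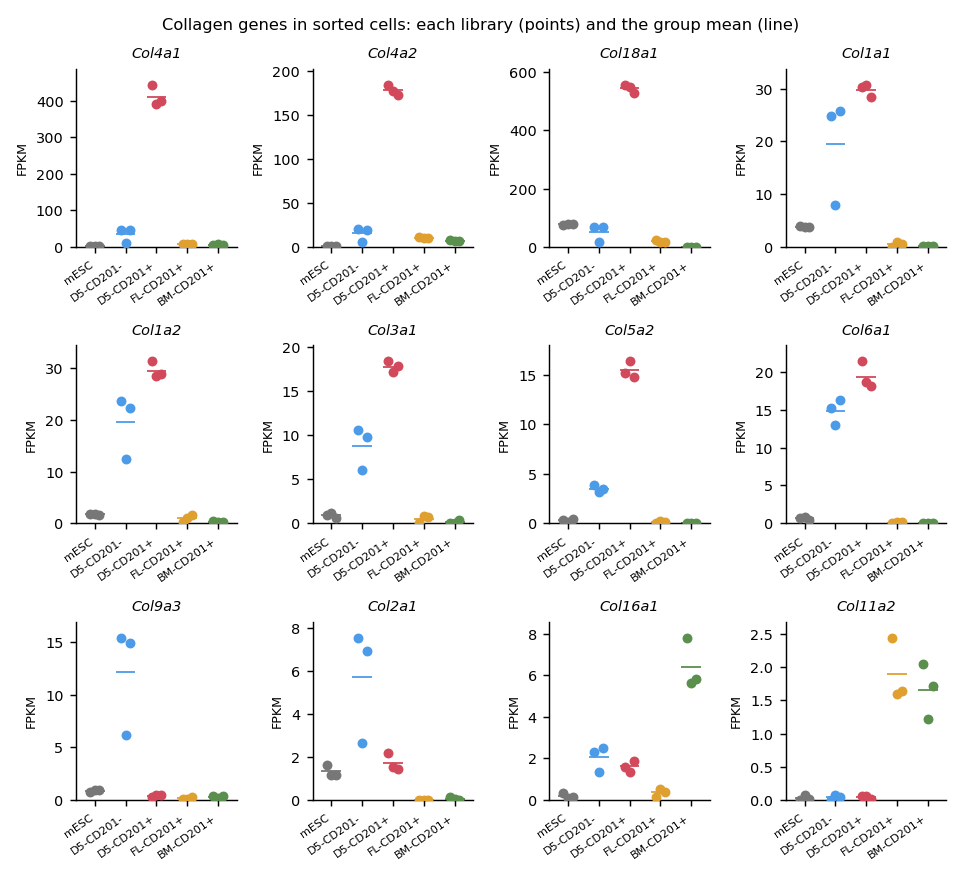
FPKM of 12 collagen genes in each library (points, replicates 1 to 3 from left to right) of the 5 sorted groups, with the group mean as a line; each panel has its own scale from 0. Col4a1, Col4a2 and Col18a1 are highest in D5-LSKCD201+, Col9a3 and Col2a1 in D5-LSKCD201-, Col16a1 in BM-LSKCD201+, and Col11a2 is near 0 outside FL-LSKCD201+ and BM-LSKCD201+.

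The fourth question set D5-LSKCD201+ against the LSKCD201+ cells taken from fetal liver and bone marrow. Against FL-LSKCD201+, 16 of 20 were higher, beside 15.1% of the 13627 genes tested, and 1 was lower, beside 19.6%. Against BM-LSKCD201+, 17 of 19 were higher, beside 17.5% of 13775 genes, and 2 were lower, beside 27.2%. Both comparisons use the same D5-LSKCD201+ libraries, and most of the collagen genes counted as higher passed the filter only through their level in D5-LSKCD201+, so the counts and medians are descriptions. Medians over the tested collagen genes were 1.85 and 1.92, and over all genes tested -0.16 and -0.23.

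Col4a1 and Col4a2 were above 5 FPKM in every in vivo library. Col4a1 had 8.48, 7.93 and 8.03 FPKM in FL-LSKCD201+ and 5.91, 6.59 and 5.99 in BM-LSKCD201+ (D5-LSKCD201+ higher by 5.50 ± 0.08 and 5.85 ± 0.07 on the log2 scale). Col4a2 had 9.58 to 11.2 FPKM and 8.12, 6.15 and 6.34 (3.99 ± 0.08 and 4.52 ± 0.10). Col18a1 had 25.0, 15.2 and 15.4 FPKM in FL-LSKCD201+, with replicate 1 the highest, and only 0.565, 0.354 and 0.592 in BM-LSKCD201+ (4.84 ± 0.18 and 8.50 ± 0.07). In each of these 6 differences the adjusted p was between 7.38e-10 and 9.32e-07.

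Type I, III and VI collagens were low in vivo. Col1a1 had 0.052, 0.876 and 0.563 FPKM in FL-LSKCD201+ and 0.133 to 0.205 in BM-LSKCD201+. Col1a2 had 0.298, 1.10 and 1.58 FPKM and 0.249 to 0.377, and Col3a1 0.0416, 0.799 and 0.664 FPKM and 0 to 0.370. In FL-LSKCD201+ replicate 1 was the lowest for these 3 genes. Col6a1 and Col6a2 did not exceed 0.132 FPKM in any FL-LSKCD201+ or BM-LSKCD201+ library, and Col6a3 was listed at 0 in all 6. Their differences from D5-LSKCD201+ lay between 1.82 and 4.73 on the log2 scale. Markers moved here too. Against FL-LSKCD201+ and BM-LSKCD201+, D5-LSKCD201+ had 8 and 9 of 10 tested stromal genes higher (sum 226 to 232 FPKM against 33.3 to 36.0 and 18.9 to 19.2), 7 and 8 of 10 endothelial genes higher (1812 to 1834 against 459 to 503 and 337 to 374), and all 3 tested smooth muscle genes higher. Of 7 pan-hematopoietic genes 5 and 6 were lower (309 to 318 against 1422 to 1682 and 2033 to 2266), and FL-LSKCD201+ held hepatocyte RNA. Of 9 tested endoderm genes 6 were higher and 3 lower against FL-LSKCD201+ (338 to 349 against 286 to 450 FPKM). Against BM-LSKCD201+, 6 of 7 were higher and 1 lower (against 6.61 to 11.6 FPKM). In both comparisons 3 of 4 preadipocyte genes were higher and 1 lower. Of the tested megakaryocyte genes 4 of 5 and 3 of 4 were lower, and 1 was higher in each. The part of these cells in the collagen values was not tested.

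The collagens below had higher values than D5-LSKCD201+ in 1 or both of the in vivo groups. Col11a2, a fibrillar chain of type XI, had 2.44, 1.59 and 1.65 FPKM in FL-LSKCD201+ and 2.05, 1.22 and 1.72 in BM-LSKCD201+, against 0.0121 to 0.0637 in D5-LSKCD201+ (-1.46 ± 0.13 and -1.34 ± 0.13). It passed the filter only through the in vivo libraries, and with a filter at 1 FPKM it was not tested in either comparison. Col16a1, a FACIT collagen, had 7.79, 5.61 and 5.83 FPKM in BM-LSKCD201+ and 1.60, 1.34 and 1.87 in D5-LSKCD201+ (-1.50 ± 0.14, adjusted p = 2.8e-05). Col17a1, the hemidesmosome collagen of epithelia, reached 0.861 to 0.914 FPKM in FL-LSKCD201+ and 0.117 to 0.211 in D5-LSKCD201+ (-0.71 ± 0.08, under the fold threshold). In the other in vivo group these last genes lay below D5-LSKCD201+. Col16a1 was at 0.128 to 0.532 FPKM in FL-LSKCD201+ and Col17a1 at 0.01 to 0.0614 FPKM in BM-LSKCD201+.

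Between FL-LSKCD201+ and BM-LSKCD201+, which share strain and gate, 7 collagen genes were tested. Col18a1 (3.67 ± 0.20, adjusted p = 1.22e-05) and Col5a1 (1.19, 1.24 and 1.25 FPKM against 0 to 0.042; 1.13 ± 0.11) were higher in fetal liver, beside 7.78% of the 13503 genes tested. Col16a1 was lower there, at 0.128, 0.532 and 0.393 FPKM (-2.46 ± 0.17), beside 11.3%. Col4a1 (0.35 ± 0.10, adjusted p = 0.0205) and Col4a2 (0.53 ± 0.13, adjusted p = 0.012) were under the fold threshold, and Col11a2 and Col1a2 overlapped between the groups. Without FL-LSKCD201+ replicate 2 or replicate 3, Col5a1 fell just under the filter of 0.5 FPKM and was not tested, which left 2 genes called. Col5a1 passed the filter only through FL-LSKCD201+ and Col16a1 only through BM-LSKCD201+. In FL-LSKCD201+, 5 of 6 hepatocyte genes (sum 361 to 540 FPKM against 17.4 to 20.1) and 5 of 6 tested endoderm genes (286 to 450 against 6.61 to 11.6) were also higher, and their part in the collagen values was not tested.

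Order of the groups for the main genes was as follows. For Col4a1 the order was D5-LSKCD201+, D5-LSKCD201-, FL-LSKCD201+, BM-LSKCD201+ and mESC, and no neighbors overlapped. For Col18a1 it was D5-LSKCD201+, mESC, D5-LSKCD201-, FL-LSKCD201+ and BM-LSKCD201+, and only D5-LSKCD201- and FL-LSKCD201+ overlapped, through D5-LSKCD201- replicate 2. For Col1a1, Col1a2 and Col6a1 it was D5-LSKCD201+, D5-LSKCD201-, mESC, FL-LSKCD201+ and BM-LSKCD201+, with overlap between FL-LSKCD201+ and BM-LSKCD201+ alone.

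The remaining members were low. In all 7 comparisons, 11 collagen genes (Col4a3, Col4a4, Col6a4, Col6a6, Col10a1, Col19a1, Col20a1, Col22a1, Col24a1, Col25a1 and Col28a1) stayed under the filter, and their highest value in any library was 0.75 FPKM, for Col22a1. In the coculture the transmembrane Col23a1 had 4.37, 4.75 and 1.71 FPKM with OP9 against 1.27 to 1.70 on gelatin (0.85 ± 0.28, adjusted p = 0.126; called at 1.20 ± 0.13, adjusted p = 0.00182, without 3D+OP9 replicate 3), Col13a1 1.41 to 3.43 against at most 1.08 FPKM (0.74 ± 0.22, adjusted p = 0.0942) and Col26a1 2.06 to 3.98 against 1.28 to 1.91 FPKM (0.71 ± 0.21, adjusted p = 0.0926). None of these 3 overlapped between groups, Col23a1 only by 1.71 against 1.70 FPKM, and none was called with all libraries. The share of all genes without overlap was not computed, so this is a description. Other tested members, among them Col8a1, Col8a2, Col12a1, Col16a1, Col27a1 and Col7a1, stayed at or under 1.77 FPKM in every coculture library.

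Genes that make, process, cross-link, bind and degrade collagen were followed as a list. In total cells, 43 of 55 with values were tested. Over all genes 2.11% were higher and 0.509% lower, and of the list 1 was called in each direction. The higher was the receptor of type III collagen Adgrg1 (13.6, 12.9 and 18.0 against 2.90, 3.75 and 3.91 FPKM; 1.80 ± 0.16, adjusted p = 0.0014). The lower was the collagen receptor tyrosine kinase Ddr1 (12.7, 13.3 and 18.2 against 28.9, 28.3 and 36.2 FPKM; -1.04 ± 0.16, adjusted p = 0.00996). The collagen chaperone Serpinh1 had 116, 137 and 94.9 against 85.8, 76.8 and 111 FPKM (0.35 ± 0.17, adjusted p = 0.274). The median log2 fold change was 0.21 over the list and 0.01 over all genes tested.

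Between D5-LSKCD201+ and D5-LSKCD201-, 45 of 56 handling genes were tested, 16 were higher and 4 lower, beside 10.8% and 13.9% of all genes tested, and the median log2 fold change was 0.60 against -0.12 over all genes tested. In synthesis and folding, 8 of 21 were higher and 1 lower; Fkbp10, a prolyl isomerase of the endoplasmic reticulum, had 105, 104 and 104 against 19.8, 20.5 and 19.9 FPKM (2.32 ± 0.05), and P3h3, a prolyl 3-hydroxylase family member, had 12.2, 19.8 and 18.7 against 4.28, 2.21 and 4.08 FPKM (1.99 ± 0.25). Bmp1, which cleaves the procollagen C-terminus, had 23.7, 25.7 and 25.8 against 4.46, 2.89 and 4.63 FPKM (2.40 ± 0.15). Among receptors, the integrin chain Itga1, which binds type IV collagen, had 15.9, 14.6 and 14.8 against 0.667, 0.706 and 0.708 FPKM (3.25 ± 0.09), and Itga2 had 3.17, 2.82 and 2.82 against 0.0609 to 0.173 FPKM (1.80 ± 0.09). The gelatinase Mmp2 had 150, 149 and 146 against 17.6, 19.6 and 18.5 FPKM (2.93 ± 0.06). Apart from Itga2, which passed the filter only through D5-LSKCD201+, these genes passed with adjusted p from 6.08e-08 to 0.000286.

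The 4 handling genes that were lower in D5-LSKCD201+ came from 4 of the functions. The other gelatinase, Mmp9, had 0.601, 1.68 and 1.49 against 18.7, 22.8 and 19.1 FPKM (-3.26 ± 0.20, adjusted p = 8.47e-06). Pcolce2, an enhancer of procollagen C-proteinase, had 0.102, 0.285 and 0.370 against 6.40, 6.02 and 5.13 FPKM (-2.45 ± 0.12). Ddr1 had 0.311, 0.438 and 0.463 against 5.88, 1.64 and 5.82 FPKM (-1.83 ± 0.36). Pcolce2 and Ddr1 passed the filter only through D5-LSKCD201-. P3h2, which hydroxylates type IV collagen, had 1.14, 1.12 and 1.40 against 3.72, 4.58 and 4.15 FPKM (-1.21 ± 0.11, adjusted p = 4.84e-05).

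In the other comparisons the handling list counted 30 higher and 3 lower of 44 tested in D5-LSKCD201+ against mESC (19.5% and 18.1% over all genes), 18 and 1 of 42 in D5-LSKCD201- against mESC (10.9% and 3.48%), 32 and 4 of 45 in D5-LSKCD201+ against FL-LSKCD201+ (15.1% and 19.6%), 29 and 2 of 42 against BM-LSKCD201+ (17.5% and 27.2%), and 1 and 5 of 31 in FL-LSKCD201+ against BM-LSKCD201+ (7.78% and 11.3%). Serpinh1, the chaperone specific to collagen, had its sorted group means in the same order as the collagen sum, with 49.4, 53.1 and 50.3 FPKM for D5-LSKCD201+, then 24.2, 4.14 and 25.0 for D5-LSKCD201-, 2.82, 1.93 and 3.23 in mESC, 2.30, 1.19 and 1.46 in FL-LSKCD201+ and 0.550, 0.404 and 0.438 in BM-LSKCD201+. D5-LSKCD201- replicate 2, which was low in Col4a1, Col4a2, Col18a1 and Col1a1, was also low in Serpinh1.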

How the data were processed

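RNA was extracted with TRIzol and sequenced as paired reads. Per the submitters' processing notes, reads were aligned with HISAT2 2.0.5 to GRCm38 (mm9 is listed as well) and summarised with StringTie 1.3.3 and Cuffdiff 1.3.0. The authors deposited FPKM values in 2 tables, 6 coculture and 15 sorted-cell libraries, which were normalized separately and were therefore tested within each table only. How the coculture table was made is not described separately. No counts were used, so the depth is unknown and neither intervals nor floors from counts are given.

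From these FPKM values, log2(FPKM + 1) was fitted with limma 3.58.1 (trend; R 4.3.3) on the 2 groups of each of 7 comparisons, over genes averaging 0.5 FPKM or more, with Benjamini-Hochberg adjustment over all genes tested. A gene was called at adjusted p under 0.05 if the log2 difference was 1 or more in size. Tests are two-sided; an exact permutation test of 3 against 3 cannot go below p = 0.1 and was not used. The 95% intervals are limma's. The code of the fits was run on simulated data with independent noise and log2 effects of 2 in genes at 2 FPKM or more. That run does not cover genes at lower levels or libraries that stand apart from their group. Figures were drawn with matplotlib 3.10.9 and tables joined with pandas 2.3.3 (Python 3.11.15).

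The members and lists were chosen with earlier results of these data known. Collagen genes were named with every value if called in either of the first 2 comparisons or at a mean of at least 10 FPKM in any group, and up to 6 handling genes per direction by fold change. Other genes that are named, such as Serpinh1 and the low collagens, were chosen after their values were seen. Alternatives covered the pseudocount, filter, scaling, variance model, call rule, shared fit, replicate block and leaving out each library. Deviations of same-numbered libraries correlated at 0.24, 0.20 and 0.16 in FL-LSKCD201+ against BM-LSKCD201+, the only comparison with every pair over 0.1; that pairing rests on the data alone, and with the replicate block 3 collagen genes were called there as well.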

Additional observations from a re-analysis of the deposited data

Results flagged for a closer look

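The 2 D5 groups lay on opposite sides of mESC for Col9a3 and Col18a1, which were picked by that position. For Col9a3, all 3 D5-LSKCD201+ libraries (0.233, 0.498 and 0.479 FPKM) lay below all mESC libraries (0.715, 0.910 and 0.924) and all 3 D5-LSKCD201- libraries (15.4, 6.17 and 14.9) lay above them. The difference between the D5 groups was -3.14 ± 0.32 on the log2 scale, a description, since the gene passed the filter only through D5-LSKCD201-. Against mESC, Col9a3 in D5-LSKCD201+ was at -0.40, under the fold threshold. For Col18a1, the D5-LSKCD201+ libraries (555, 548 and 529 FPKM) lay above mESC (74.7, 79.7 and 77.3) and the D5-LSKCD201- libraries (66.5, 16.2 and 68.6) below, and the D5 groups differed by 3.65 ± 0.51, likewise given as a description. The difference of D5-LSKCD201- from mESC did not pass for Col18a1 (-0.85 by limma, adjusted p = 0.185, and -0.19 without D5-LSKCD201- replicate 2). The file's locus reaches past the annotated gene for both. With 3 libraries a group, single libraries were not tested for standing apart.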

How the results depend on the processing

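The 7 counts of collagen genes called were recomputed under 110 alternatives, and 107 stayed within 1.5 times. In D5-LSKCD201+ against D5-LSKCD201- the count of 7 became 13 with a pseudocount of 0.1 and 18 by adjusted p alone, and in FL-LSKCD201+ against BM-LSKCD201+ the count of 3 became 5 by adjusted p alone. In the OP9 and D5 pair comparisons the log2 fold changes of the named collagens kept direction and call in 422 of 430 alternatives. With a filter at 1 FPKM, the called genes no longer tested were Col15a1 with OP9, Col16a1 and Col9a2 in D5-LSKCD201+ against mESC, Col6a3, Col9a1 and Col14a1 in D5-LSKCD201- against mESC, Col8a1, Col13a1, Col12a1, Col11a2 and Col2a1 in D5-LSKCD201+ against both in vivo groups, and Col5a1 between those groups. Quantile normalization gave 14 higher and 1 lower in D5-LSKCD201- against mESC, without Col9a1 and Col14a1 and with Col13a1. Col5a2 with OP9 ranged from -0.078 without 3D+OP9 replicate 2 to 0.36 without replicate 3, and came to -0.0027 with the closest pair of libraries averaged, an alternative chosen after seeing the data. Col3a1 in D5-LSKCD201+ against D5-LSKCD201- passed the fold threshold under 5 alternatives (1.04 to 1.10), and Col15a1 with a pseudocount of 0.1 (1.44). The cause was not tested.

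Leaving out 1 library gave 6 to 7 calls with OP9, 7 to 8 in D5-LSKCD201+ against D5-LSKCD201-, 15 to 16 and 15 to 17 in D5-LSKCD201+ and D5-LSKCD201- against mESC, 16 to 18 and 17 to 19 in D5-LSKCD201+ against FL-LSKCD201+ and BM-LSKCD201+, and 2 to 3 between the last pair. With the replicate block the counts were 6, 7, 15, 16, 17, 19 and 3, as without it. Scaling each library to 1 common sum (TPM) raised the summed collagen level to 2506 in D5-LSKCD201+ and 406 in D5-LSKCD201-, 191 in mESC, 78.4 in FL-LSKCD201+, 39.9 in BM-LSKCD201+, 574 with OP9 and 391 on gelatin. Over all genes, D5-LSKCD201- against mESC had 1476 higher and 473 lower calls (75.7% higher), and 1104 and 741 (59.8%) under quantile normalization, which moved the median of all genes from 0.05 to -0.10. Scaling also moved the median of all genes by over 0.1 in D5-LSKCD201+ against D5-LSKCD201- (-0.12 to -0.01, with 1475 higher and 1904 lower calls becoming 1716 and 1599 under quantile normalization), against FL-LSKCD201+ (-0.16 to -0.05 by quantiles and -0.02 by TPM) and against BM-LSKCD201+ (-0.23 to -0.02 and -0.07), and in FL-LSKCD201+ against BM-LSKCD201+ (-0.13 to -0.02 by quantiles). Quantile normalization turned 2054 higher and 2673 lower calls in D5-LSKCD201+ against FL-LSKCD201+ into 2314 and 2296. Against BM-LSKCD201+, 2406 and 3753 became 2890 and 3007, and against mESC, 2626 and 2430 became 2499 and 2611. In FL-LSKCD201+ against BM-LSKCD201+, 1050 and 1531 became 1211 and 1245. Calls that changed when 1 library was left out and are not given above were gains of Col3a1 in the D5 pair (without D5-LSKCD201- replicate 1 or 3) and of Col16a1 against FL-LSKCD201+ (without D5-LSKCD201+ replicate 2 or FL-LSKCD201+ replicate 2), and losses of Col9a1 in D5-LSKCD201- against mESC (without mESC replicate 1 or D5-LSKCD201- replicate 1 or 3), of Col12a1 against FL-LSKCD201+ and BM-LSKCD201+ (without any D5-LSKCD201+ replicate) and of Col8a1 (against BM-LSKCD201+ likewise, against FL-LSKCD201+ without D5-LSKCD201+ replicate 2), both then under the filter of 0.5 FPKM and not tested. Col9a1 in the D5 pair was also called by TPM and with a pseudocount of 0.1.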
